A study of Rattus norvegicus with 4 samples.

Results

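Integrins are receptors for the extracellular matrix, built from 1 alpha and 1 beta subunit, and the genes of their subunits were followed here in rat neural stem/progenitor cells. The genes were taken by a list of 8 symbols, matched to the gene symbols of 4 count tables. Of these, 6 (Itga5, Itga6, Itga7, Itgb1, Itgb5 and Itgb8) were analysed, out of 16881 symbols in all, and 5 had the 10 or more counts in at least 1 library needed for testing, as did 10516 genes of the whole series. Itga3 and Itgav are not analysed here. All cells carried a wild-type genotype and were grown on a culture platform called PUCL@CNT1 or on the bare PUCL platform. In the differentiation groups, 24 h in a medium that keeps stemness (maintenance medium below) was followed by 1.5 days in B-27 Plus neuronal culture medium (differentiation medium). The maintenance groups were taken after those 24 h. The 4 combinations, PUCL@CNT1 and PUCL in differentiation medium and PUCL@CNT1 and PUCL in maintenance medium, were 1 library each, so no group had replicates, and medium and time in culture changed together.

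Each integrin pairs an alpha with a beta chain at the cell surface, and the pair decides which matrix protein is bound. The product of Itgb1 is the common beta partner, and with the products of Itga6 or Itga7 it forms laminin receptors, while with that of Itga5 it forms the classical fibronectin receptor. The products of Itgb5 and Itgb8 pair with that of Itgav, the first as a vitronectin receptor and the second as an activator of latent TGF-beta. In the developing brain, progenitors touch laminin at the ventricular surface and at the basement membrane, and the laminin receptor chain of Itga6 is widely used as one of their surface markers.

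Libraries were made with a 3' end kit (QuantSeq) and held between 6035848 and 6855984 counts. Between 9584 and 9842 symbols had a count in each. The ribosomal RNA precursor Rn45s took 4.25% and 4.54% of counts on PUCL@CNT1, and 6.72% and 5.66% on PUCL, in differentiation and maintenance medium in each case. Markers of the labelled progenitor identity were present, with Vim between 28449 and 50754 counts, Sox2 between 3879 and 6301 and Nes between 2363 and 3714. Other genes of that list were low or at 0, with Pax6 between 19 and 246 counts, Prom1 between 7 and 73, Hes5 at most 2 and Msi1 at 0 in all 4 libraries. Defining genes of microglia (Aif1, Ptprc), endothelium (Pecam1) and mural cells and fibroblasts (Rgs5, Dcn) had 0 counts in all 4 libraries. Other genes of those lists did have counts, with Acta2 between 2279 and 6920, Tagln between 928 and 1621, Col1a2 up to 133, Kdr up to 95 and Flt1 up to 125. Lists of markers summed to 10392 CPM (counts put on a common library size with TMM factors, the trimmed means of M values) on PUCL@CNT1 and 8311 on PUCL in differentiation medium, and to 6734 and 6434 CPM in maintenance medium, for neural stem and progenitor cells (12 genes). For neurons (8 genes) the sums were 55.5, 93.9, 132 and 141 CPM in that order, for astrocytes (7 genes) 481, 993, 502 and 520, and for the oligodendrocyte lineage (9 genes) 1546, 1541, 838 and 936. Mural cell and fibroblast markers (10 genes, 3 to 5 of them at 0 in a library) summed to 578, 647, 929 and 1330 CPM, microglia markers (8 genes, 7 or 8 at 0) to at most 7.27, endothelial markers (8 genes) to at most 29.5, and ependymal and choroid plexus markers (5 genes) to at most 19.2.

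Itgb5, the beta chain of a vitronectin receptor, was the integrin gene that differed most clearly between the platforms. It had 301 counts on PUCL@CNT1 and 994 on PUCL in differentiation medium, and 48 on PUCL@CNT1 and 381 on PUCL in maintenance medium (45.3, 154, 7.68 and 57.8 CPM in that order). Both PUCL@CNT1 libraries lay below both PUCL libraries, and on each platform the differentiation library was the higher. As a ratio of scaled counts, Itgb5 was 3.40-fold lower on PUCL@CNT1 than on PUCL in differentiation medium (95% counting interval 2.98 to 3.88) and 7.52-fold lower in maintenance medium (5.56 to 10.4). These intervals come from exact binomial (Clopper-Pearson) limits on a pair of counts and cover counting error only, not scatter between cultures. In bulk samples, fewer cells of a type and less RNA per cell cannot be told apart.

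An edgeR quasi-likelihood fit over the 4 libraries, with medium and platform as additive terms, gave Itgb5 a platform effect of log2 -2.30 (SE 0.400, Benjamini-Hochberg adjusted p 0.000252 over all genes tested). It ranked 5 of 10516 genes by p-value, and was the 1 tested integrin gene past the threshold of 0.05 for platform, where 0.456% of all genes passed in either direction and 0.247% as lower. The fit treats the media as repeats of 1 platform difference and has 1 residual degree of freedom, so the spread is largely borrowed from other genes. The adjusted p was between 0.000592 and 0.00654 with other scalings, with no filter, with ribosomal RNA entries left out and in limma-voom, but 0.0985 among genes that averaged at least 100 counts and 0.402 without the medium term, and DESeq2 gave no adjusted p. With that term and 1 library left out, it was 6.85e-05 without the PUCL@CNT1 differentiation library, 1.00 without the PUCL differentiation library, 0.885 without the PUCL@CNT1 maintenance library and 0.151 without the PUCL maintenance library, with log2 values between -3.77 and -1.12. S100b and Slc1a3, glial genes of the marker lists, were also lower on PUCL@CNT1 in the same fit (log2 -1.36, adjusted p 0.00578, and log2 -0.82, adjusted p 0.0457). These calls were kept in 5 and 3 of 8 other settings on all 4 libraries. S100b had 761 counts on PUCL@CNT1 and 3939 on PUCL in differentiation medium, but 534 and 683 in maintenance medium. Of the astrocyte list, Aldoc had a platform log2 of -1.13 (adjusted p 0.471) and Gja1 of 0.12. The part of cell makeup in the Itgb5 result was not tested.

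**Figure D1:**
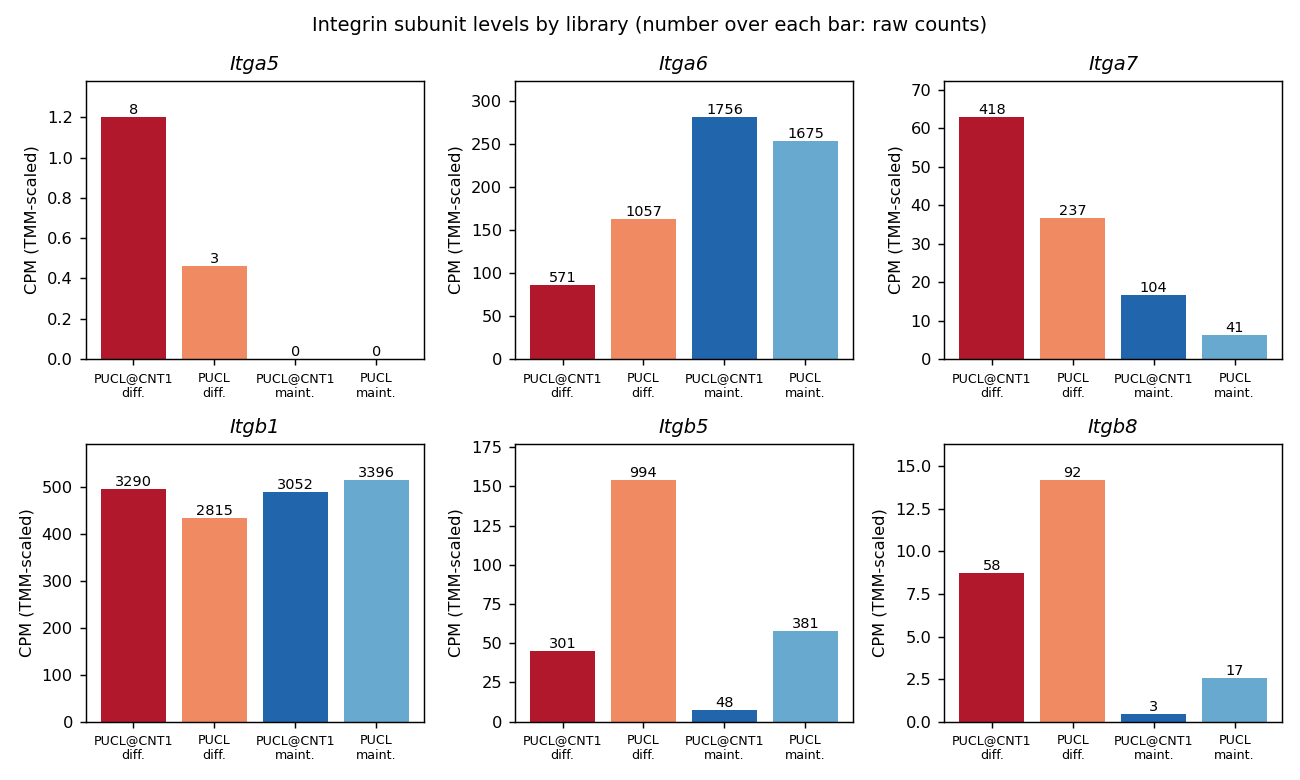
TMM-scaled CPM (y axis, linear, from 0) of the 6 integrin genes in each library (x axis; diff. is differentiation and maint. maintenance medium), with the raw count over each bar. Each bar is 1 library, so there are no error bars. Itgb5 was lower in both PUCL@CNT1 libraries, Itga7 was higher in both differentiation libraries and Itga6 lower in them, while Itgb1 stayed between 435 and 515 CPM.

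Itgb5 also rose with the change to differentiation medium. Its level was 5.89-fold higher in differentiation than in maintenance medium on PUCL@CNT1 (4.33 to 8.17) and 2.66-fold higher on PUCL (2.36 to 3.003). The fitted medium effect was log2 1.95 (SE 0.396, edgeR adjusted p 0.000723). The call was past the threshold in 7 of 8 other settings on all 4 libraries (adjusted p 0.0582 without the platform term). With that term and 1 library left out, it was lost without the PUCL differentiation library (0.863) or the PUCL@CNT1 maintenance library (0.986). The PUCL@CNT1 ratio exceeded that on PUCL by log2 1.14 (0.67 to 1.60, counting error only), so the platform gap was narrower in differentiation medium in these libraries.

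Itgb8, whose product activates latent TGF-beta, was low in every library. It had 58 counts on PUCL@CNT1 and 92 on PUCL in differentiation medium, and 3 on PUCL@CNT1 and 17 on PUCL in maintenance medium (8.72, 14.2, 0.480 and 2.58 CPM). Within each medium PUCL@CNT1 lay below PUCL, as for Itgb5, and both differentiation libraries were above both maintenance libraries. The ratio of differentiation to maintenance medium was 18.2 on PUCL@CNT1, with a wide interval of 5.92 to 90.7 that rests on those 3 counts, and 5.52 on PUCL (3.27 to 9.88). The fitted effects were log2 3.25 for medium (SE 2.03, edgeR adjusted p 0.607) and -1.48 for platform (SE 1.92, adjusted p 1.00), neither past the threshold.

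Itgb1, the shared beta chain, had the smallest fold range of levels among the 5 tested integrin genes. It had 3290 counts on PUCL@CNT1 and 2815 on PUCL in differentiation medium, and 3052 on PUCL@CNT1 and 3396 on PUCL in maintenance medium (495, 435, 489 and 515 CPM). The ratio of differentiation to maintenance medium was 1.01 on PUCL@CNT1 (0.964 to 1.06) and 0.846 on PUCL (0.804 to 0.889). The fitted effects were log2 -0.11 for medium (SE 0.196, edgeR adjusted p 0.951) and 0.05 for platform (SE 0.196, adjusted p 1.00). A p-value above the threshold does not show that the level stayed equal.

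The promoters of Itgb5, Itgb8 and Itgb1 are shown because these are the 3 tested beta chain genes and a window was matched for each. RefSeq (GRCr8 build) gave a promoter window, 250 bases before to 50 after the start, for 4 of the 6 genes, and none was matched for Itga6 and Itga7. Sequences run 5′ to 3′ on the gene's strand, and capitals mark matches on either strand to the GC box GGGCGG, the E-box CANNTG, the SMAD element CAGAC, the TEAD element GGAATG or the AP-1 site TGANTCA, none of which overlapped another here.
Itgb5 promoter (chr11:80449324-80449623, - strand): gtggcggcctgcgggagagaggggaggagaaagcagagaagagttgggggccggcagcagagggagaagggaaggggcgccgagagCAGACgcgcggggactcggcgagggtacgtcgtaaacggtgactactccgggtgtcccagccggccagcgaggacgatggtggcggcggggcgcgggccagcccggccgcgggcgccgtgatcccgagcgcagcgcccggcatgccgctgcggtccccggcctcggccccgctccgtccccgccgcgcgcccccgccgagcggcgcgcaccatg
Itgb8 promoter (chr6:146351196-146351495, - strand): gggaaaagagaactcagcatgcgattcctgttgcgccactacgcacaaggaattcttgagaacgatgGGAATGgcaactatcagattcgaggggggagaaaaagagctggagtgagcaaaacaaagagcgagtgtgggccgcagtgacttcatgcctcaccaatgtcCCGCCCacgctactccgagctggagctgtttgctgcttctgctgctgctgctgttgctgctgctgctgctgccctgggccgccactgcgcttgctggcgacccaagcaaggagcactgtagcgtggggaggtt
Itgb1 promoter (chr19:73602027-73602326, + strand): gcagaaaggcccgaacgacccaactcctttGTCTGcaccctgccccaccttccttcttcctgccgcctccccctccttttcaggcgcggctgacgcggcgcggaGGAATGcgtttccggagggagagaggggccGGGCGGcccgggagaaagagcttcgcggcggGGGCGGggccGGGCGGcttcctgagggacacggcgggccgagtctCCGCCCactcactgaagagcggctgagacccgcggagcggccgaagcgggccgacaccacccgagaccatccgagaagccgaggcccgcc
The Itgb5 window, at 76.7% G and C, held 1 CAGAC match and none of the other 4 motifs. The Itgb8 window (57.3% G and C) held 1 GC box and 1 GGAATG match. In the Itgb1 window (71.7% G and C) there were 4 GC boxes, 1 CAGAC and 1 GGAATG match. Of 33469 promoter windows of this length, 33.1% held a GC box, 72.1% an E-box, 50.1% CAGAC, 14.2% GGAATG and 7.33% TGANTCA. A match is a description and not a bound site. The counts are of 3' ends, which do not show which start site was used.

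Among the alpha chains, the laminin receptor genes Itga6 and Itga7 moved in opposite directions with the medium. Itga6 had 571 counts on PUCL@CNT1 and 1057 on PUCL in differentiation medium, and 1756 on PUCL@CNT1 and 1675 on PUCL in maintenance medium (85.9, 163, 281 and 254 CPM). Both differentiation libraries were below both maintenance libraries, with the PUCL@CNT1 differentiation library the lowest. Itga6 fell by a fitted log2 of 1.17 (SE 0.263, edgeR adjusted p 0.00292), and was 3.27-fold lower on PUCL@CNT1 (2.98 to 3.60) and 1.55-fold lower on PUCL (1.44 to 1.68). The call was past the threshold in all 8 other settings on 4 libraries (adjusted p 0.00101 to 0.0462). Without the platform term and 1 library it was 0.00206 without the PUCL differentiation library, but 0.288 without the PUCL@CNT1 differentiation library, 0.693 without the PUCL@CNT1 maintenance library and 0.405 without the PUCL maintenance library.

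Itga7 had 418 counts on PUCL@CNT1 and 237 on PUCL in differentiation medium, and 104 on PUCL@CNT1 and 41 on PUCL in maintenance medium (62.9, 36.7, 16.6 and 6.22 CPM). Both differentiation libraries were above both maintenance libraries, and within each medium PUCL@CNT1 was the higher, opposite to Itgb5. Itga7 rose with the medium by a fitted log2 of 2.23 (SE 0.573, edgeR adjusted p 0.0127), with a ratio of 3.78 on PUCL@CNT1 (3.04 to 4.73) and 5.90 on PUCL (4.22 to 8.43). Its platform effect was log2 1.08 (SE 0.557, adjusted p 0.744), outside the threshold, with ratios of 1.72 in differentiation medium (1.46 to 2.02) and 2.68 in maintenance medium (1.85 to 3.94). The medium call was kept in 5 of 8 other settings, and missed in DESeq2 (0.0726), in limma-voom (0.0857) and among genes that averaged at least 100 counts (0.0629). Without the platform term and 1 library, it held without the PUCL differentiation library (0.0280), and not without the PUCL@CNT1 differentiation (0.345), PUCL@CNT1 maintenance (0.210) or PUCL maintenance library (0.626).

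The sums of several marker lists, given above, also moved with the medium. Sums for the oligodendrocyte lineage and for neural stem and progenitor cells were higher in both differentiation libraries than in both maintenance libraries. Those for neurons and for mural cells and fibroblasts were lower. A sum follows its genes with the most counts, and list members differed. Median medium log2 ratios of the mural cell and fibroblast list were 0.86 on PUCL@CNT1 and -1.07 on PUCL. For the neuron list they were -2.13 and -0.27, though its gene Dcx was higher in differentiation medium (9.18 CPM on PUCL@CNT1 and 12.2 on PUCL, against 6.24 and 7.28). In the same edgeR fit 3 of 10 tested progenitor genes rose with the medium, among them Hes1 (log2 1.37, adjusted p 0.0103) and Fabp7 (0.88, adjusted p 0.000491). Of 9 oligodendrocyte lineage genes 4 rose, among them Olig1 (1.20, adjusted p 1.92e-05). Among those that did not pass were Olig2 (0.27), Cspg4 (-0.19) and Mog (-0.40). Acta2, a smooth muscle actin, fell (-1.10, adjusted p 1.96e-05), the 1 of 7 tested mural cell and fibroblast genes to pass. In that list Tagln had -0.24 (adjusted p 0.897) and Col1a1 0.98 (adjusted p 0.991). Over all genes tested, 1.80% rose and 1.02% fell. The part of cell makeup in the medium results of Itgb5, Itga6 and Itga7 was not tested. Itga5, of the fibronectin receptor, had 8 counts on PUCL@CNT1 and 3 on PUCL in differentiation medium, and 0 in both maintenance libraries. A count of 0 allows up to 3 counts per library, which is 0.480 CPM on PUCL@CNT1 and 0.455 CPM on PUCL in maintenance medium. Itga5 was too low to test.

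**Figure D2:**
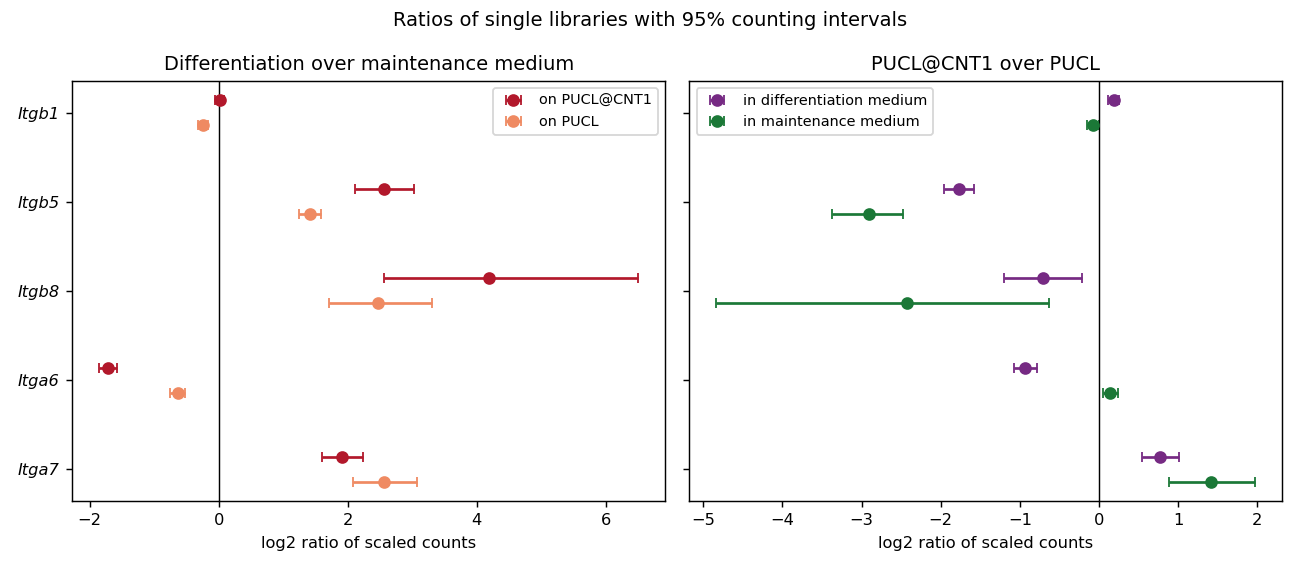
Log2 ratios of scaled counts, with no prior count added, for the 5 tested integrin genes (x axis), with differentiation over maintenance medium on the left and PUCL@CNT1 over PUCL on the right. Points are ratios of 1 library to another and bars are 95% counting intervals. Itgb5 lay left of 0 for platform in both media, and Itga6 and Itga7 lay on opposite sides of 0 for medium on both platforms.

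The makeup of alpha chain counts differed between the media. Itga6 made up 46.6% of the counts of the 12 alpha subunit genes analysed on PUCL@CNT1 (exact 95% interval 43.8 to 49.5) and 68.7% on PUCL (66.3 to 71.0) in differentiation medium, and 86.5% (84.9 to 88.0) and 87.7% (86.1 to 89.1) in maintenance medium. Itga7 made up 34.1% on PUCL@CNT1 (31.5 to 36.9) and 15.4% on PUCL (13.6 to 17.3) in differentiation medium, and 5.12% (4.205 to 6.17) and 2.15% (1.54 to 2.90) in maintenance medium. Of the counts of 8 beta subunit genes, Itgb5 made up 8.18% on PUCL@CNT1 (7.32 to 9.11) and 25.5% on PUCL (24.1 to 26.9) in differentiation medium, and 1.52% (1.13 to 2.02) and 10.03% (9.09 to 11.03) in maintenance medium. Each share is to be read for 1 gene across libraries, since counts are not set per length. Itgav, Itga3, Itga2, Itga2b, Itga9 and Itgax were not analysed and are not in the sums.

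**Figure D3:**
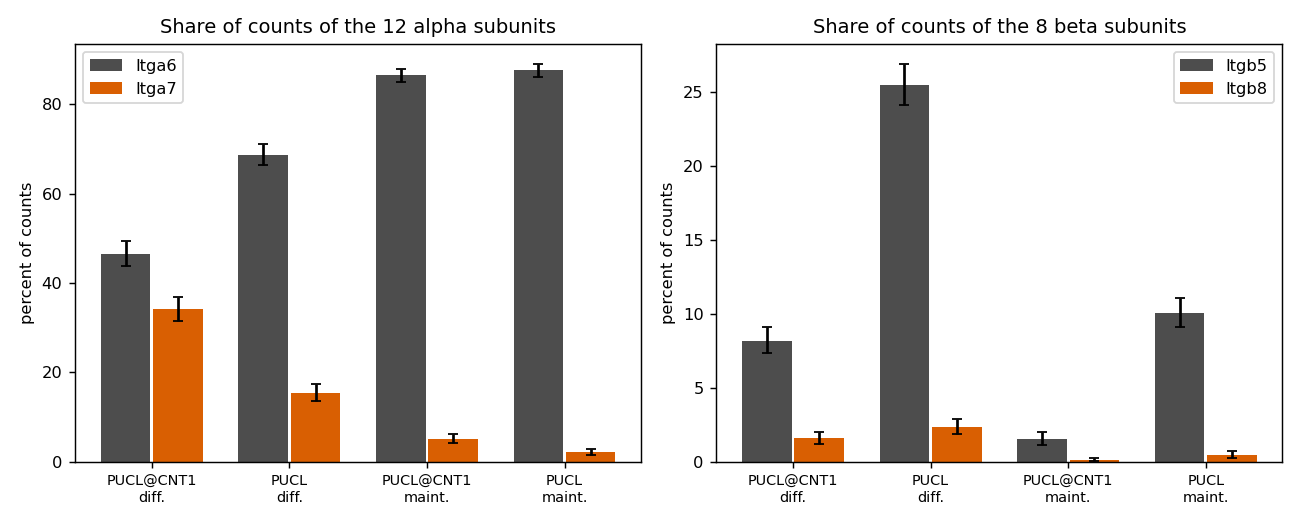
Share of counts (y axis, percent, from 0) that Itga6 and Itga7 took of 12 alpha subunit genes (left) and Itgb5 and Itgb8 of 8 beta subunit genes (right) in each library (x axis), with exact 95% binomial intervals. The Itga6 share was lowest, at 46.6%, and the Itga7 share highest, at 34.1%, on PUCL@CNT1 in differentiation medium.

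Set against all genes, 2 of the 5 tested integrin genes (Itgb5 and Itga7) rose and 1 (Itga6) fell with the medium in edgeR, where 1.80% of tested genes rose and 1.02% fell. The integrin genes were listed with earlier results of these data known, so such counts describe these genes and do not test integrins as a group. By a rule of size (at least 2-fold with the nearer 95% bound beyond 1.5-fold), Itgb5, Itga7 and Itgb8 were higher in differentiation medium on both platforms, which held for 4.35% of tested genes, and Itga6 was lower on PUCL@CNT1 alone. Single-platform backgrounds were large, with 16.5% of genes higher and 14.5% lower on PUCL@CNT1 and 16.1% and 15.3% on PUCL. For platform, Itgb5 was lower by this rule in both media, as were 3.17% of tested genes. In maintenance medium Itgb8 was also lower and Itga7 higher, where 13.9% and 12.2% of genes were, and in differentiation medium no other integrin gene passed it (15.6% lower and 15.2% higher).

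**Figure D4:**
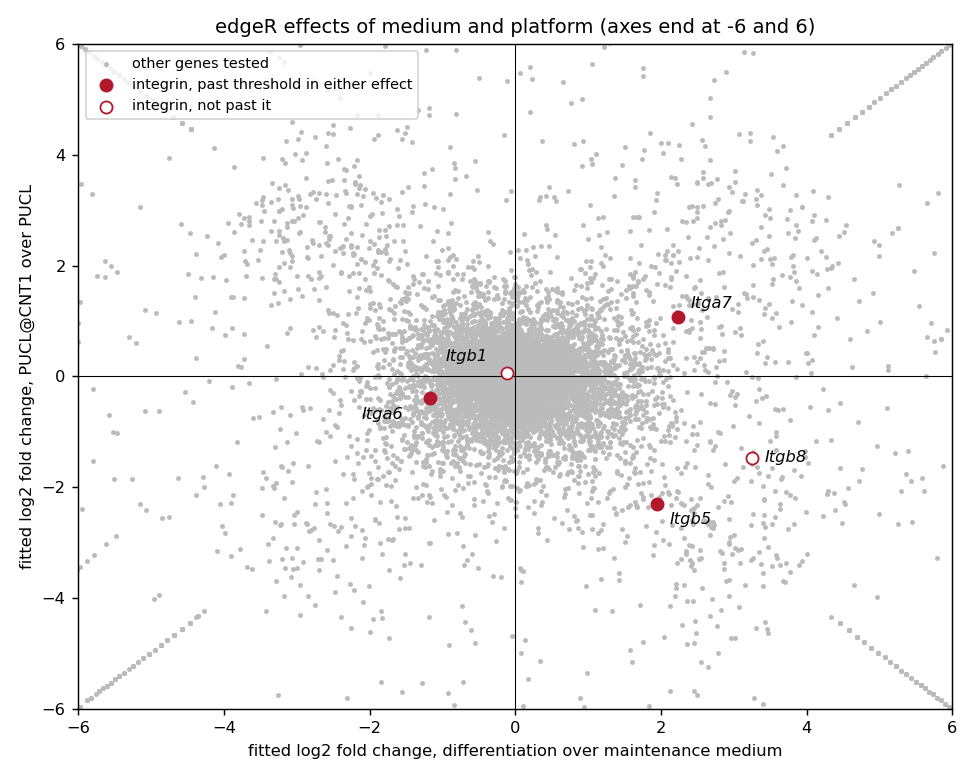
Fitted edgeR log2 fold changes of all tested genes for medium (x axis) and platform (y axis), with the 5 tested integrin genes marked. Each point is 1 gene from the fit over 4 libraries, and 633 genes beyond the axis ends at 6 are not shown. Itgb5 lies at 1.95 and -2.30, and Itga7 and Itga6 lie on opposite sides of the vertical axis at 2.23 and -1.17.

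The 14 other integrin subunit genes analysed, of 18 listed, were mostly at 0 counts. Their list was also made with earlier results of these data known. In each library 10 of them had 0 counts, and of the 5 tested genes none passed in edgeR for medium or platform (0 also at an unadjusted p under 0.05, and 0 in DESeq2 and limma-voom). DESeq2 could not call most of them, since it gave the 5 no adjusted p for platform, and Itga10, Itgb2 and Itgb4 none for medium. Itga8, which pairs with the product of Itgb1, had 107 counts on PUCL@CNT1 and 129 on PUCL in differentiation medium, and 102 and 120 in maintenance medium (medium log2 0.06, adjusted p 1.00). Itgae had 121 counts on PUCL@CNT1 and 111 on PUCL in differentiation medium, and 68 and 64 in maintenance medium (medium log2 0.78, adjusted p 0.919), while Itgb7, the known beta partner of its product, had 0 in all 4. Itgb4, which pairs with the product of Itga6 in hemidesmosomes and was picked out after its values were seen, had 13 counts on PUCL@CNT1 and 0 on PUCL in differentiation medium, and 36 and 0 in maintenance medium. With PUCL set at the floor of 3 counts per library, the PUCL@CNT1 level of Itgb4 was 4.21-fold higher in differentiation medium and 12.7-fold higher in maintenance medium. These ratios leave out counting error in the 13 and 36 counts, and the edgeR adjusted p for platform was 1.00.

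In the lists of ligands and of matrix proteins that hold them, 1 gene passed the test. Ltbp1, which holds latent TGF-beta in the matrix, rose with the medium (log2 1.44, SE 0.349, edgeR adjusted p 0.00711). It had 672 counts on PUCL@CNT1 and 929 on PUCL in differentiation medium, and 301 and 269 in maintenance medium. The call was kept in 7 of 8 other settings (0.0632 in DESeq2) and, without the platform term and 1 library, in 1 of 4 (adjusted p up to 0.438). Ltbp1 was the 1 of 17 tested genes of the list of RGD and other ligands to pass for medium, where 1.80% of all genes rose. For medium, 2 of the list had an unadjusted p under 0.05, and 0 passed in DESeq2 and 1 in limma-voom. The list median log2 was -0.09 on PUCL@CNT1 and -0.75 on PUCL, against -0.02 and 0.03 over all genes tested. For platform 0 passed, with 0 at an unadjusted p under 0.05 and 0 in limma-voom. DESeq2 gave the genes of this list no adjusted p for platform. Mfge8, a secreted RGD protein, had a medium log2 of 0.46 (adjusted p 0.599). The TGF-beta genes Tgfb1, Tgfb2 and Tgfb3 had at most 15, 73 and 10 counts in a library, and Vtn (vitronectin) at most 11. Of 10 laminin and basement membrane genes, none passed for either effect, with 1 each at an unadjusted p under 0.05. For medium 0 passed in DESeq2 and 1 in limma-voom, and for platform 0 in both. Only Col4a1 had a DESeq2 adjusted p for platform. Median medium log2 ratios of the list were 0.18 on PUCL@CNT1 and 0.09 on PUCL. Col4a1, a basement membrane collagen, had a medium log2 of 0.56 (adjusted p 0.0806), and Lamc1, a shared laminin chain, -0.20 (adjusted p 0.932).

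Genes for the proteins that link integrins to the cytoskeleton did not pass. Of 35 tested adaptor and signalling genes, 0 passed in edgeR for medium (6 at an unadjusted p under 0.05, 0 in DESeq2 and 1 in limma-voom) and 0 for platform (1 at an unadjusted p under 0.05, 0 in DESeq2 and 0 in limma-voom). Most of these genes had no DESeq2 adjusted p for platform. Their median medium log2 ratios were -0.08 on PUCL@CNT1 and 0.09 on PUCL. The gene under 0.05 for platform was Kank2 (platform log2 1.65, edgeR adjusted p 0.0670), picked out after its values were seen. It had 94.6 CPM on PUCL@CNT1 and 32.3 on PUCL in differentiation medium, and 44.5 and 13.2 in maintenance medium. Fermt2, a kindlin that activates integrins from inside, had 2801 counts on PUCL@CNT1 and 2730 on PUCL in differentiation medium, and 2723 and 3155 in maintenance medium (medium log2 -0.11, adjusted p 0.951). Ptk2, the focal adhesion kinase, had 1788 and 2288 counts in differentiation medium, and 2816 and 3329 in maintenance medium, on PUCL@CNT1 and PUCL in each case (medium log2 -0.63, adjusted p 0.0835).

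Membrane partners of integrins held 3 genes that passed for medium among 19 tested, with 2 higher and 1 lower, against 1.80% and 1.02% of all genes tested. For medium 9 had an unadjusted p under 0.05, and 1 passed in DESeq2 and 3 in limma-voom. For platform 0 passed (2 at an unadjusted p under 0.05, 0 in DESeq2 and limma-voom), though DESeq2 gave most of the list no adjusted p for platform. Tspan7, a tetraspanin, rose by log2 1.60 (SE 0.263, edgeR adjusted p 1.21e-05), with 1463 counts on PUCL@CNT1 and 2450 on PUCL in differentiation medium, and 624 and 600 in maintenance medium. Cd81, another tetraspanin, rose by 0.70 (adjusted p 0.0427), a call kept in 2 of 8 other settings. Sdc4, a syndecan that acts with integrins in focal adhesions, fell by 0.77 (adjusted p 0.0156, kept in 5 of 8). The tetraspanin Cd63, with the most counts of the list, had a medium log2 of 0.32 (adjusted p 0.306). Median medium log2 ratios of the list were 0.67 on PUCL@CNT1 and 0.28 on PUCL.

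Genes with the most similar pattern were sought among 6204 genes that averaged at least 100 counts, by the Euclidean distance between centred log2 CPM values over the 4 libraries. Such a distance over 4 points is a description only. Itgb5 was nearest to Retsat (distance 0.41) and Acss1 (0.70), and Itgb8 to Lyst (0.50) and Myl9 (0.71). Retsat had 79 counts on PUCL@CNT1 and 219 on PUCL in differentiation medium, and 12 and 125 in maintenance medium. Itga7 was nearest to Anxa1 (0.32) and Slc7a11 (0.40), with Anxa1 at 830 and 497 counts in differentiation medium and 164 and 83 in maintenance medium, on PUCL@CNT1 and PUCL in each case. Itga6 was nearest to Raph1 (0.03) and Polr3c (0.12), and Itgb1 to Rnps1 (0.05) and Nol8 (0.06).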

How the data were processed

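RNA of rat neural stem/progenitor cells was profiled in 4 libraries, from 500 ng of total RNA each and a Lexogen QuantSeq kit, per the labels' protocols. Each deposited table paired gene symbols with whole-number read counts that the authors had not normalized. Bowtie2, bedtools and the rn6 build were used, per the submitters' processing notes; versions, annotation, strand setting and filters were not given in the sources used here, so overlapping and antisense genes could not be told apart. Entries of one symbol were summed (17048 entries, 16881 symbols); no integrin gene listed had several.

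Genes that reached 10 counts in any library were tested in edgeR 4.0.16 (glmQLFit, TMM factors of 0.970 to 1.03, 87.2 prior degrees of freedom), with Benjamini-Hochberg adjustment over 10516 genes; standard errors are the log2 fold change over the root of F. limma 3.58.1, DESeq2 1.42.0, SciPy 1.17.1 and R 4.3.3 served the rest. DESeq2 gave some genes no adjusted p, more often for platform than for medium, and could not call those genes. Pairs of libraries were described, not tested. Named were all listed integrin genes, genes of 5 related lists past the threshold (at most 5 a list), the 2 with most counts in each list, and the 2 nearest genes in pattern. The members and lists were chosen with earlier results of these data known. Alternatives were other scalings, filters, tools and terms, and leaving out each library. The script was tested on simulated counts. Of 100 simulated 2-fold changes the fit recovered 17 for medium and 12 for platform, and of 100 4-fold changes 57 and 59. A gene that did not pass may therefore still have changed. Among genes simulated without a change, 6 were called for medium and 2 for platform. The changed genes were drawn above a minimum mean count and the other term had no simulated effect, so recovery of low-count genes is not described.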

Additional observations from a re-analysis of the deposited data

Results flagged for a closer look

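Itga6 was flagged because its platform ratio pointed in opposite directions in the media: the log2 ratio of PUCL@CNT1 over PUCL was -0.93 in differentiation medium and 0.15 in maintenance medium, with counting intervals on opposite sides of 0. Itgb1 was flagged on the same ground, with 0.18 in differentiation medium and -0.08 in maintenance medium. Its maintenance interval only just cleared an equal level (0.903 to 0.997 as a ratio), and with total counts the log2 was -0.05, so this flag depends on the scaling. The difference between media was not tested for either gene, since each ratio compares 1 library with 1 other.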

How the results depend on the processing

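For medium, edgeR called 189 genes higher and 107 lower. It called 94 and 47 among genes that averaged at least 100 counts, and 114 and 62 without the platform term, while DESeq2 called 116 and 54. Leaving out 1 library, together with that term, gave 10 to 112 higher and 3 to 101 lower: 10 and 6 without the PUCL@CNT1 maintenance library, 25 and 3 without the PUCL maintenance library, 112 and 91 without the PUCL differentiation library, and 92 and 101 without the PUCL@CNT1 differentiation library. For platform, 22 higher and 26 lower became 6 and 12 with DESeq2's median-ratio factors in edgeR, 13 and 15 with total counts and 10 and 15 with no filter, while DESeq2 called 23 higher and 15 lower, and limma-voom 50 higher and 37 lower. Platform calls in edgeR were 0 and 0 among genes that averaged at least 100 counts (541 at an unadjusted p under 0.05) and 0 and 0 without the medium term (388); leaving out 1 library with that term gave 0 to 4 higher and 0 to 22 lower, with 5 lower without the PUCL@CNT1 maintenance library, 2 without the PUCL maintenance library and 0 without the PUCL differentiation library (334 at an unadjusted p under 0.05). By a size rule of 3-fold with the bound beyond 2-fold, genes lower by medium numbered 900 on PUCL@CNT1 (1522 in the main rule) and 1069 on PUCL (1605), genes higher by platform in maintenance medium 837 (1278), and genes lower in differentiation medium 1080 (1640). Under it Itgb5 on PUCL by medium, and Itga7 and Itgb8 by platform in maintenance medium, were no longer called.

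Platform effects outside the threshold changed sign when 1 library and the medium term were left out. Itga6 had 0.44 without the PUCL@CNT1 differentiation library and 0.17 without the PUCL maintenance library. Itga7 had -0.35 without the PUCL@CNT1 differentiation library, and Itgb1 -0.06 without the PUCL differentiation library. Itgb8 had 0.84 without the PUCL differentiation library and 0.05 without the PUCL@CNT1 maintenance library. Dropping a library with the other term mixes medium with platform by construction. Itgb1 on PUCL@CNT1 by medium had a log2 of -0.08 with total counts, against 0.02. No integrin call changed direction. Taking only the entry with the most counts changed no integrin level. No paired analysis was possible because each group was 1 library, beyond the additive terms, which already compare media within a platform and platforms within a medium; the fits without a term, given above, leave that block out. Low counts limit Itga5 and Itgb8.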
